A study of Homo sapiens with 12 samples.

Results

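The lipid synthesis genes described here are 37 human genes whose products build fatty acids from acetyl-CoA, lengthen and desaturate them, activate them with coenzyme A and attach them to glycerol, together with the regulator SREBF1. They were found in the table by gene symbol alone, and the set was drawn up with earlier results of these data known. All 37 were found among the 19516 named genes of the deposited table, and 35 of them were among the 14133 genes with enough reads to be tested. The other 2 were not tested. ELOVL4, an elongase of extremely long chains, had no read in any library. ACSL6, a long-chain acyl-CoA synthetase, had 0 reads in the HCC1937 extract libraries and 3 in the HCC1937 control libraries, 0 in the MDA-MB-231 extract libraries and 3 in the MDA-MB-231 control libraries.

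RNA was sequenced from HCC1937 and MDA-MB-231, established lines of triple-negative breast cancer, a class that lacks estrogen and progesterone receptors and HER2 amplification. Cells of each line were kept for 72 h with or without an aqueous extract of the medicinal plant Kalanchoe pinnata, giving 4 groups of 3 libraries: HCC1937 with extract at 66 µg/mL, HCC1937 control, MDA-MB-231 with extract at 140 µg/mL, and MDA-MB-231 control. All groups are labelled wild type, and the labels call the cells without extract only controls. HCC1937 grew in RPMI 1640 and MDA-MB-231 in DMEM, both with fetal bovine serum, so line, medium and dose cannot be told apart when the lines are compared.

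Fatty acid synthesis starts from citrate, which ACLY splits to acetyl-CoA in the cytosol. Acetyl-CoA carboxylase makes malonyl-CoA from it, and fatty acid synthase joins these units to the saturated fatty acid palmitate. Elongases, desaturases and acyl-CoA synthetases then set chain length, double bonds and entry into membranes and triglycerides, and the transcription factor SREBP-1, encoded by SREBF1, is known to raise many of these genes when sterols or polyunsaturated fatty acids are scarce. Tumour cells often run this pathway even where fatty acids can be taken up from serum.

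The libraries held 16170342 to 31337259 counts on named genes, and 14036 to 15154 genes had reads. Levels are given in CPM, counts relative to a common library size adjusted by the trimmed mean of M-values (TMM), and a floor of 3 counts lay at 0.0990 to 0.213 CPM over the 12 libraries. Library E7, an MDA-MB-231 extract library, stood apart. Its mitochondrially encoded genes took 10.7% of counts, against 4.63% and 4.78% in the other MDA-MB-231 extract libraries E8 and E9, 2.76% to 2.87% in MDA-MB-231 controls, 3.78% to 3.98% in HCC1937 extract libraries and 3.53% to 3.69% in HCC1937 controls. Its Spearman correlations with E8 and E9 over genes were 0.967 and 0.966, against at least 0.9968 for every other pair within a group. Among the 32 lipid synthesis genes at 5 CPM or more in MDA-MB-231 extract libraries, E7 was the lowest of the 3 libraries for 21, the highest for 9 and between the others for 2, at 0.361 to 2.22 times the mean of E8 and E9. Values for MDA-MB-231 without E7 are therefore given wherever leaving it out changed a call or moved a value by over 1.5 times, and for further genes in which E7 lay apart, and because all 4 groups share an estimate of the spread, E7 also widened the standard errors in HCC1937. VIM, a mesenchymal marker, averaged 2.83 CPM in HCC1937 extract and 13.9 CPM in HCC1937 control libraries, against 4286 and 3736 CPM in the corresponding MDA-MB-231 groups. KRT5 and CDH1, markers of basal and epithelial cells, were at 0 in MDA-MB-231, but other genes of the 7-gene HCC1937 list were read there: KRT8 averaged 845 CPM with extract and 472 CPM without, and KRT18 1024 CPM with extract and 273 CPM without. The list summed to 11237 to 11377 CPM in HCC1937 extract and 4370 to 4517 CPM in HCC1937 control libraries. In MDA-MB-231 it summed to 1500 to 2625 CPM in extract and 730 to 776 CPM in control libraries. Its members did not move alike in HCC1937. The keratins averaged higher with extract, whereas CDH1 averaged 120 CPM with extract and 186 CPM without, and EPCAM 94.5 and 173 CPM. The part of these shifts in the results below was not tested. The listed MDA-MB-231 marker CDH2 stayed at or below 0.394 CPM in every library. Of the same list, ZEB1 averaged 5.22 CPM with extract and 60.3 CPM without in MDA-MB-231, FN1 113 and 432 CPM, and CD44 634 and 629 CPM. Their part in the results below was likewise not tested. SPARC, also listed for MDA-MB-231, was higher in HCC1937, at 55.1 CPM in extract and 39.1 CPM in control libraries, against 7.74 and 8.64 CPM in MDA-MB-231. The adipocyte marker ADIPOQ and the fibroblast marker DCN were at 0 in all libraries, and 4 adipocyte markers summed to at most 0.825 CPM. In bulk RNA, fewer cells of a type and less RNA per cell cannot be told apart.

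With extract, many of these genes changed in both lines, in both directions, and every family with several tested members held both risen and fallen genes in at least 1 line. The stearoyl-CoA desaturase SCD, fatty acid synthase FASN, the elongase ELOVL6, the acyl-CoA synthetases ACSL3 and ACSL4 and the phosphatidate phosphatase LPIN1 fell in both, while the very-long-chain elongase ELOVL1, the elongation reductase TECR and the acyltransferase AGPAT2 rose in both. In HCC1937, 11 of the 35 tested members rose, 15 fell and 9 did not pass an adjusted p of 0.05 in edgeR's quasi-likelihood test, with Benjamini-Hochberg adjustment over all 14133 genes. Over all genes tested, 32.7% rose and 39.1% fell in this line. In MDA-MB-231, 11 members rose, 16 fell and 8 did not pass, where 33% of all genes rose and 32.8% fell. Without E7 the MDA-MB-231 counts were 12 risen, 16 fallen and 7 not passing, against 37.3% and 37.2% of all genes. The median log2 fold change of the members was -0.53 in HCC1937, against -0.16 over all genes, and -0.32 in MDA-MB-231, against 0 over all genes. With an offset for transcript length and GC content, described below, these gaps closed: the medians were -0.036, against -0.041 over all genes, in HCC1937 and -0.044, against 0 over all genes, in MDA-MB-231. The HCC1937 shares of members called, 31.4% risen and 42.9% fallen, lay near those of all genes. Leaving out members with 3 reads or fewer in a group gave medians without the offset of -0.53 and -0.29. The extract and control libraries did not overlap for 29 of the 35 members (82.9%) in HCC1937, against 82.1% of all genes tested, and for 28 (80%) in MDA-MB-231, against 67.6%.

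**Figure D1:**
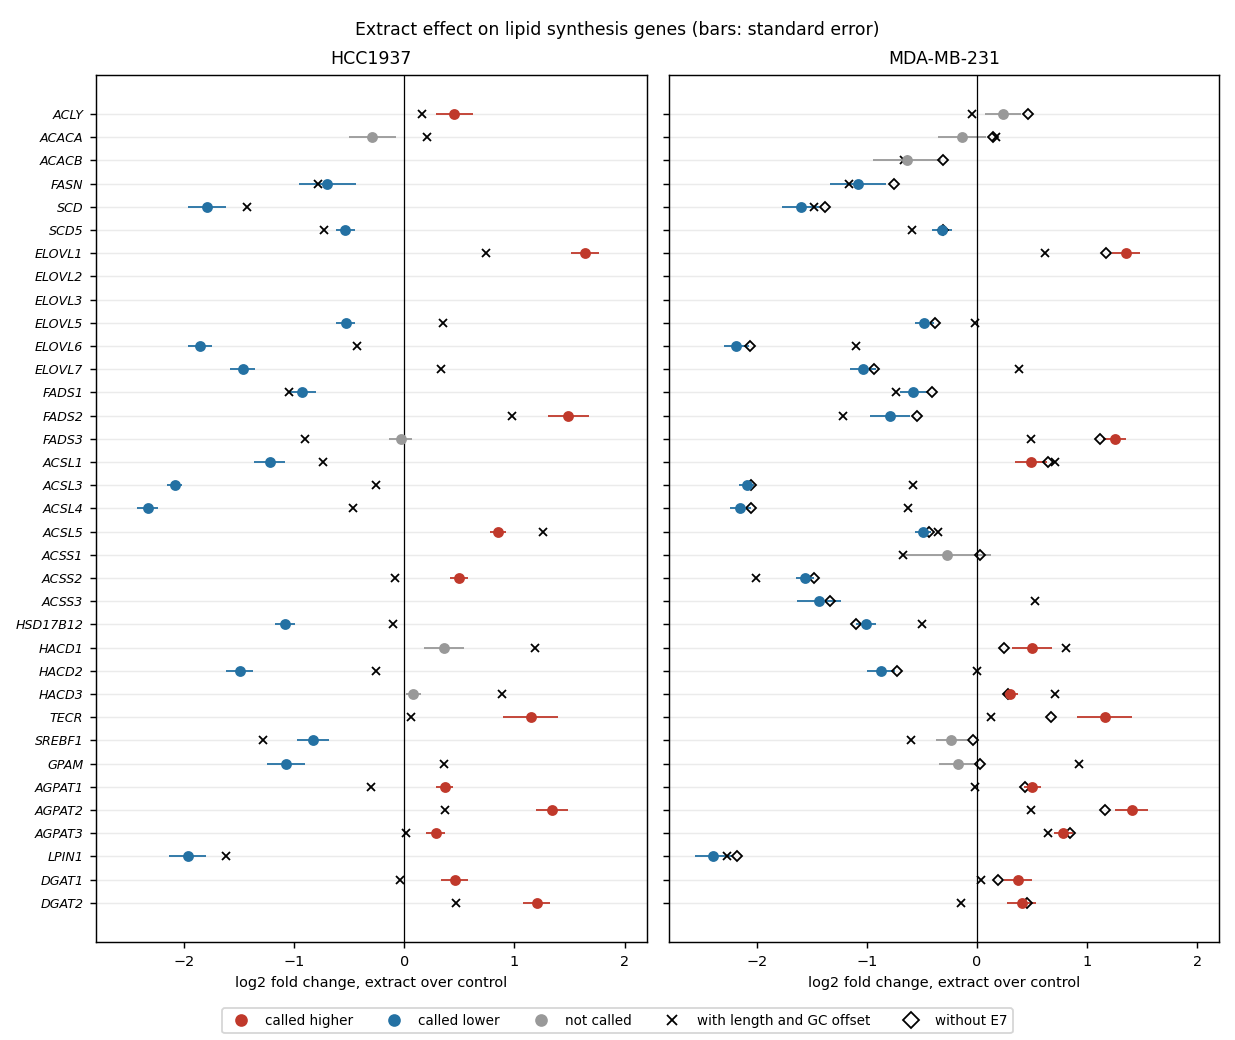
Log2 fold change of each lipid synthesis gene with extract over control, in HCC1937 (left) and MDA-MB-231 (right). Points are the fitted values with bars of 1 standard error (3 libraries a group), red where called higher, blue where called lower and grey where not called, crosses are the values with a length and GC offset, and open diamonds are the values without library E7. SCD, ELOVL6, ACSL3, ACSL4 and LPIN1 lie left of 0 in both panels with every setting drawn, whereas ELOVL7, at -1.47 and -1.04, moves right of 0 with the offset. Genes with 1 CPM or less on average in a line are not drawn there.

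Across the calls in both lines, 12 members fell in both: FASN, SCD, SCD5, ELOVL5, ELOVL6, ELOVL7, FADS1, ACSL3, ACSL4, HSD17B12, HACD2 and LPIN1. Another 7 rose in both: ELOVL1, TECR, AGPAT1, AGPAT2, AGPAT3, DGAT1 and DGAT2. The direction was opposite for 4, with FADS2, ACSL5 and ACSS2 higher in HCC1937 and lower in MDA-MB-231, and ACSL1 lower in HCC1937 and higher in MDA-MB-231. The remaining 12 were called in at most 1 line. Transcript length and base composition moved with the extract effect over all genes. Genes with a longest coding transcript over 5 kb and at most 42% GC (1401 genes) had a median log2 fold change of -1.91 in HCC1937 and -1.55 in MDA-MB-231, whereas those of at most 2 kb and over 55% GC (1445 genes) had medians of 0.91 and 0.78. The 12 members that fell in both lines have transcripts of 2571 to 8565 nt, median 4929 nt, with a median GC content of 41.4%, and the 7 that rose in both have transcripts of 1188 to 5767 nt, median 2453 nt, with a median GC content of 56.1%. With an offset that removes the smooth trend with length and GC in each library, 12 members rose and 13 fell in HCC1937, against 33.1% and 34.2% of the 14053 genes with a length, and 11 rose and 14 fell in MDA-MB-231, against 33.7% and 31.9%. With it, 8 of the 12 still fell in both lines (all but ELOVL5, ELOVL7, HSD17B12 and HACD2), and 2 of the 7, ELOVL1 and AGPAT2, still rose in both. Whether length or GC itself accounts for any of these changes was not tested. Scaling by library totals in place of TMM changed the splits to 6 risen (17.1%) and 19 fallen (54.3%) in HCC1937. Over all 14133 genes, 2877 rose and 7024 fell there with this scaling. In MDA-MB-231 it gave 5 risen (14.3%) and 16 fallen (45.7%), against 3233 and 5651 of the 14133 genes. It set the median of all genes at -0.61 and -0.26. Over all 20 alternatives, SCD, SCD5, ELOVL6, FADS1, ACSL3, ACSL4 and LPIN1 kept a lower call in both lines, ELOVL1 and AGPAT2 kept a higher call in both, and FADS2 and ACSL5 kept opposite calls.

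**Figure D2:**
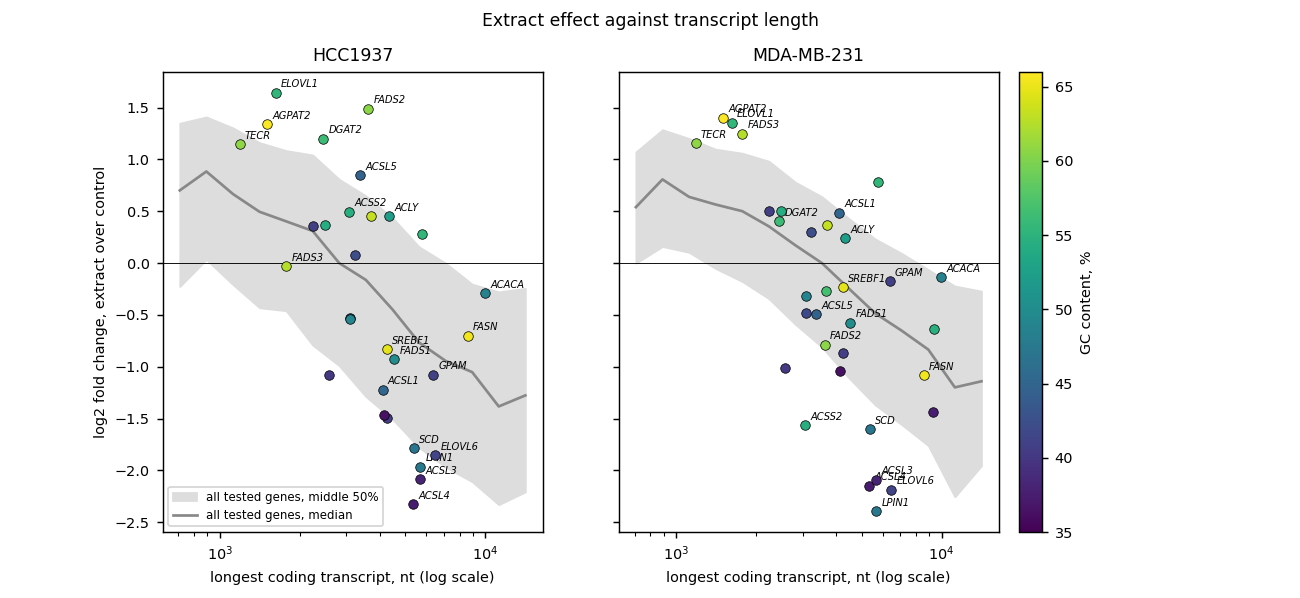
Log2 fold change with extract over control against the length of the longest coding transcript (log scale, nt) in HCC1937 (left) and MDA-MB-231 (right). Each point is a lipid synthesis gene coloured by GC content in percent, and the grey line and band are the median and middle 50% of all tested genes in bins of length. The line falls with length over most of the range in both panels. SCD and LPIN1 lie below the line in both panels, FADS2 lies above it in HCC1937 and below it in MDA-MB-231, and ACACA, the longest member at 9961 nt, lies above it in both.

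Between carbon supply and the synthase itself, ACLY was called higher and FASN lower in HCC1937, while in MDA-MB-231 ACLY was not called and FASN was lower. ACLY, which supplies cytosolic acetyl-CoA, had 438, 426 and 444 CPM in HCC1937 extract libraries, against 319.7, 324 and 311 CPM in HCC1937 controls. In MDA-MB-231 it had 433 CPM in E7 and 755 and 745 CPM in the other extract libraries, against 535, 561 and 544 CPM in controls. The extract libraries were the higher in HCC1937, and in MDA-MB-231 E7 lay below the controls and E8 and E9 above them. The log2 fold change was 0.45 ± 0.17 in HCC1937 (SE, adjusted p = 0.0276) and 0.24 ± 0.17 in MDA-MB-231 (adjusted p = 0.226). The HCC1937 call was lost at 0.00 with library totals, at 0.16 with the offset, and without E25, E26, E27, E31 or E33 in turn (adjusted p = 0.0507 to 0.0728), and the MDA-MB-231 value was 0.46 without E7 (adjusted p = 6.63e-13). ACACA, the cytosolic acetyl-CoA carboxylase, had 194, 198 and 205 CPM in HCC1937 extract libraries, against 239, 259 and 232 CPM in controls. The MDA-MB-231 values were 51.8 CPM in E7 and 109.7 and 109 CPM in E8 and E9, against 90.9, 102 and 105 CPM in controls. Neither line passed the test, at -0.29 ± 0.21 (adjusted p = 0.245) in HCC1937 and -0.14 ± 0.22 (adjusted p = 0.605) in MDA-MB-231. Without E7 the HCC1937 value of ACACA was -0.27 (adjusted p = 2.77e-06) and the MDA-MB-231 value was 0.15 (adjusted p = 0.0158), and with the offset ACACA was called higher in both lines, at 0.21 and 0.18. ACACB, the carboxylase isoform of the mitochondrial surface, was read mainly in MDA-MB-231, at 4.34, 12.2 and 11.9 CPM with extract (E7 lowest), against 14.6, 15.5 and 14.8 CPM in controls. It stayed at or below 0.527 CPM in every HCC1937 library and passed the test in neither line, at -0.64 ± 0.31 in MDA-MB-231 (adjusted p = 0.0894). There it was -0.31 without E7, not called, and was called lower with the offset (-0.66, adjusted p = 0.00471) and with voom (-0.33, adjusted p = 0.00648).

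FASN, the synthase that makes palmitate, had 782, 786 and 823 CPM in HCC1937 extract libraries, against 1325, 1337 and 1220.5 CPM in controls. Its level in MDA-MB-231 was 416 CPM in E7 and 1035 and 1025 CPM in E8 and E9, against 1688, 1798 and 1750.1 CPM in controls. Every extract library lay below every control of its line. FASN was 1.62-fold lower with extract in HCC1937 (log2 fold change -0.70 ± 0.26, adjusted p = 0.0281) and 2.11-fold lower in MDA-MB-231 (-1.08 ± 0.26, adjusted p = 0.00296), or -0.76 in MDA-MB-231 without E7. In HCC1937 the call was lost without E25, E26, E31, E32 or E33 in turn (adjusted p = 0.0652 to 0.079), whereas without E7 its adjusted p was 7.4e-17 at -0.68. The offset left FASN at -0.78 and -1.16.

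The acetyl-CoA synthetases, which make acetyl-CoA from acetate or activate related short acids, separated the lines. ACSS2, the enzyme of the cytosol and nucleus, had 138, 141 and 145 CPM in HCC1937 extract libraries, against 96.9, 103 and 100.3 CPM in controls. For MDA-MB-231 the libraries gave 47, 55.1 and 56.8 CPM in extract libraries, against 159, 153 and 158 CPM in controls. It was thus the higher with extract in HCC1937 (1.41-fold, log2 fold change 0.50 ± 0.08, adjusted p = 0.000151) and 2.95-fold lower with extract in MDA-MB-231 (-1.56 ± 0.08, adjusted p = 2.03e-08). The HCC1937 rise was not called with library totals (0.05) or with the offset (-0.09), while the fall in MDA-MB-231 was called with both, at -1.85 with library totals. ACSS3, a mitochondrial enzyme known to activate propionate, had 21.1, 27.1 and 25.3 CPM in MDA-MB-231 extract libraries, against 68.5, 64.5 and 66.1 CPM in controls (log2 fold change -1.43 ± 0.20, adjusted p = 5.56e-05). Its transcript is 9254 nt long with 37.7% GC, and with the offset the value was 0.53 (adjusted p = 0.00732), called in the opposite direction. In HCC1937 ACSS3 had only 5 reads in the extract libraries, all in E33, and 9 in the controls, and it was called lower there without E33 (adjusted p = 0.00779), when no read was left in the extract group. ACSS1, the mitochondrial acetate enzyme, had 0 reads in HCC1937 extract and 2 in HCC1937 control libraries, and 155 reads in MDA-MB-231 extract and 169 in control libraries (-0.27 ± 0.39 in MDA-MB-231, adjusted p = 0.574, and 0.03 without E7).

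**Figure D3:**
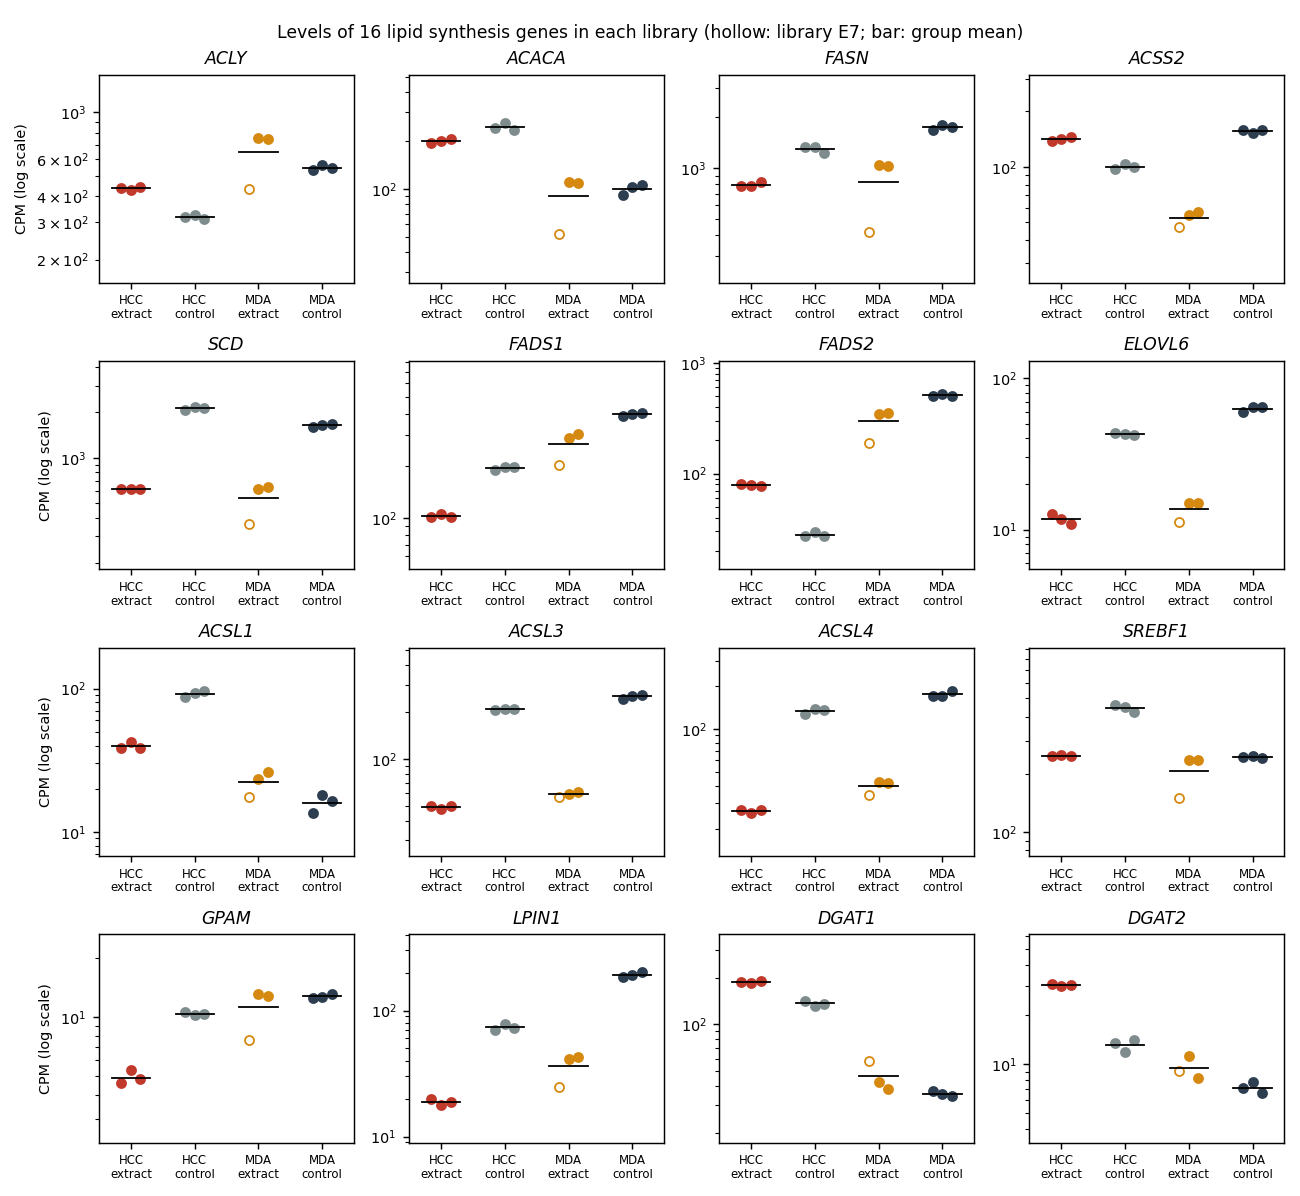
Level of 16 lipid synthesis genes in every library, in TMM-scaled CPM on a log scale, for HCC1937 extract, HCC1937 control, MDA-MB-231 extract and MDA-MB-231 control from left to right. Each point is a library, the bar is the mean of the 3 libraries of a group, and the hollow point is library E7. SCD is low in all extract libraries of both lines, FADS2 and ACSS2 go opposite ways in the lines, and E7 lies below E8 and E9 for FASN, SCD and FADS2.

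Among the desaturases, SCD fell by the largest fold in each line and FADS2 parted the lines. SCD puts the first double bond into palmitate and stearate. It had 619.9, 623 and 617 CPM in HCC1937 extract libraries, against 2072, 2190.1 and 2157 CPM in controls. MDA-MB-231 libraries gave 364 CPM in E7 and 617 and 641 CPM in E8 and E9, against 1598, 1662 and 1664 CPM in controls. No extract library came near a control. The fall was 3.45-fold in HCC1937 (log2 fold change -1.79 ± 0.17, adjusted p = 1.97e-06) and 3.04-fold in MDA-MB-231 (-1.60 ± 0.17, adjusted p = 6.48e-06), or -1.38 in MDA-MB-231 without E7, and the offset gave -1.43 and -1.48. SCD5, the second stearoyl-CoA desaturase, averaged 27 ± 1.67 CPM with extract and 39.1 ± 1.09 CPM without in HCC1937, and 16.9 ± 0.685 CPM with extract and 21.1 ± 2 CPM without in MDA-MB-231 (SD, n = 3 each). It fell less, by 0.53 and 0.32 on the log2 scale (adjusted p = 0.000188 and 0.00947).

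FADS1, which introduces the later double bond in the making of arachidonic acid, had 101, 105 and 101 CPM in HCC1937 extract libraries, against 190.0, 197 and 197 CPM in controls. In MDA-MB-231 it had 203 CPM in E7 and 290.4 and 304 CPM in E8 and E9, against 390.2, 398 and 402 CPM in controls. FADS1 was lower in every extract library, by -0.93 ± 0.12 in HCC1937 (adjusted p = 3.31e-05) and -0.58 ± 0.12 in MDA-MB-231 (adjusted p = 0.00148, and -0.41 without E7). FADS2 catalyses the entry step of the same route. It had 81, 79.1 and 76.6 CPM in HCC1937 extract libraries, against 27.3, 29.6 and 27.4 CPM in controls, a 2.81-fold rise (1.49 ± 0.19, adjusted p = 1.91e-05). The MDA-MB-231 values were 189 CPM in E7 and 344 and 354 CPM in E8 and E9, against 507, 518 and 507 CPM in controls, a 1.73-fold fall (-0.79 ± 0.18, adjusted p = 0.00242, and -0.54 without E7). Within a library, where scaling cancels, FADS2 had 0.755 to 0.803 times the CPM of FADS1 in HCC1937 extract libraries, against 0.139 to 0.150 times in HCC1937 controls, and 0.929 to 1.18 times in MDA-MB-231 extract libraries, against 1.26 to 1.30 times in MDA-MB-231 controls. These ratios are not adjusted for length. FADS1 and FADS2 lie on opposite strands of chromosome 11 and their annotated spans overlap (GRCh38, 61799625 to 61829318 and 61792980 to 61867354), and since the use of strand in counting is not given in the sources used here, reads from the shared part may be split between them. FADS3, the neighbouring family member, had 28.5, 28.6 and 27 CPM in HCC1937 extract libraries, against 27.5, 29.2 and 29.3 CPM in controls (-0.03 ± 0.10, adjusted p = 0.802). Its level in MDA-MB-231 was 148, 114 and 113 CPM with extract, E7 highest, against 51.7, 55.2 and 51.2 CPM in controls, a 2.38-fold rise (1.25 ± 0.10, adjusted p = 8.24e-07, and 1.12 without E7). The FADS3 transcript is 1779 nt long with 62.6% GC, also short and GC-rich, and its MDA-MB-231 rise stayed called with the offset. With the offset the HCC1937 value of FADS3 was -0.90 (adjusted p = 1.37e-07) and with library totals -0.48 (adjusted p = 0.000137), both called lower.

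Elongation adds carbon pairs to palmitate and longer chains. ELOVL6, which takes palmitate to stearate, had 12.7, 11.8 and 10.9 CPM in HCC1937 extract libraries, against 43.2, 42.6 and 42.3 CPM in controls. For MDA-MB-231 the libraries gave 11.2 CPM in E7 and 15 CPM in both E8 and E9, against 60, 64.3 and 64.8 CPM in controls. The falls were 3.62-fold (-1.85 ± 0.11, adjusted p = 4.17e-08) and 4.55-fold (-2.19 ± 0.11, adjusted p = 1.78e-08). With the offset they were smaller and still called, at -0.43 in HCC1937 and -1.09 in MDA-MB-231. ELOVL1, which makes very long saturated chains used in sphingolipids, went the other way. It had 352, 335 and 338 CPM in HCC1937 extract libraries, against 106, 111 and 111 CPM in controls, and in MDA-MB-231 292 CPM in E7 and 208 and 199.9 CPM in E8 and E9, against 91.9, 94.3 and 87.5 CPM in controls. It rose 3.13-fold in HCC1937 (1.64 ± 0.13, adjusted p = 2.89e-07) and 2.56-fold in MDA-MB-231 (1.35 ± 0.13, adjusted p = 1.98e-06, and 1.17 without E7), and with the offset 0.74 and 0.62 were still called. ELOVL5, which lengthens polyunsaturated chains, averaged 113 ± 6.04 CPM with extract and 164 ± 5.23 CPM without in HCC1937, and 189.5 ± 21.2 CPM with extract and 264 ± 2.56 CPM without in MDA-MB-231. ELOVL7 averaged 7.93 ± 0.782 CPM with extract and 21.9 ± 0.418 CPM without in HCC1937, and 9.98 ± 1.31 CPM with extract and 20.6 ± 1.38 CPM without in MDA-MB-231 (SD, n = 3 each). Both were called lower in both lines, but with the offset ELOVL7 was called higher in both (0.34 and 0.38), and ELOVL5 was called higher in HCC1937 (0.35) and not called in MDA-MB-231 (-0.02). ELOVL2 and ELOVL3 were sparse: ELOVL2 had 56 reads in HCC1937 extract and 85 in control libraries, with 1 and 2 in MDA-MB-231, and ELOVL3 had 4 and 1 reads in HCC1937, with 51 in MDA-MB-231 extract and 21 in control libraries, and neither passed in either line. ELOVL2 in HCC1937 was called higher with the offset (0.93, adjusted p = 0.0249) and lower with library totals (-0.89, adjusted p = 0.0321), and ELOVL3 in MDA-MB-231 was called higher in 3 alternatives, without E32, with voom and with only the groups compared (adjusted p = 0.0377 to 0.0476).

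The other enzymes of the elongation cycle did not move as a block. HSD17B12, the ketoreductase, averaged 50.6 ± 1.17 CPM with extract and 107 ± 6.99 CPM without in HCC1937, and 93.9 ± 10.6 CPM with extract and 189 ± 5.1 CPM without in MDA-MB-231 (SD, n = 3 each). It fell by 1.08 and 1.01 on the log2 scale, and with the offset the values were -0.10 (not called) and -0.50. Of the dehydratases, HACD2 fell in both lines (-1.49 ± 0.12 and -0.87 ± 0.12), HACD3 was called higher in MDA-MB-231 (0.30 ± 0.07) and not in HCC1937 (0.08 ± 0.07), and HACD1 likewise (0.50 ± 0.18 and 0.36 ± 0.18). With the offset both were called higher in both lines, HACD3 at 0.88 in HCC1937 and 0.70 in MDA-MB-231 and HACD1 at 1.18 and 0.81. Without E7 the HCC1937 value of HACD3 was 0.10 and called (adjusted p = 0.0263). With library totals HACD3 was called lower in HCC1937 (-0.37) and not called in MDA-MB-231. The HACD1 call in MDA-MB-231 was lost without E2, E3 or E7 in turn (adjusted p = 0.0767, 0.0862 and 0.055, and 0.24 without E7). It was also lost with library totals and with only the groups compared. The HCC1937 value of HACD1 was called without E7 (0.38) or E8 (0.38, adjusted p = 0.0241). TECR, the reductase that closes the cycle, had 574, 564 and 554 CPM in HCC1937 extract libraries, against 263, 248 and 252 CPM in controls. MDA-MB-231 libraries gave 291 CPM in E7 and 134 and 129 CPM in E8 and E9, against 87.3, 74.7 and 85.3 CPM in controls. E7 had the highest value of that line, and the rise of 1.16 ± 0.25 (adjusted p = 0.00157) was 0.67 without it, still called. In HCC1937 the rise was 1.15 ± 0.25 (adjusted p = 0.00136). The TECR transcript is 1188 nt long with 60.7% GC, and with the offset neither line was called, at 0.06 and 0.13.

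Among the long-chain acyl-CoA synthetases, which activate free fatty acids for every later use, ACSL3 and ACSL4 fell by similar folds in both lines. ACSL3, known from lipid droplets and the endoplasmic reticulum, had 49.6, 47.7 and 49.6 CPM in HCC1937 extract libraries, against 205, 210.1 and 208 CPM in controls. In MDA-MB-231 it had 56.8, 59.4 and 61.1 CPM in extract libraries, against 243, 253 and 258 CPM in controls. Its fold was 4.24 lower in HCC1937 (-2.08 ± 0.07, adjusted p = 1.1e-09) and 4.26 lower in MDA-MB-231 (-2.09 ± 0.07, adjusted p = 7.75e-10). ACSL4, which prefers arachidonic acid and is known for its part in ferroptosis, had 27.1, 25.8 and 26.8 CPM in HCC1937 extract libraries, against 127, 137 and 136 CPM in controls. The MDA-MB-231 values were 34.4, 42.3 and 41.7 CPM in extract libraries, against 171, 170.1 and 184 CPM in controls. The falls were 5.02-fold (-2.33 ± 0.09, adjusted p = 3.04e-09) and 4.43-fold (-2.15 ± 0.09, adjusted p = 4.68e-09). Their transcripts are 5679 nt long with 38.1% GC and 5333 nt long with 37.4% GC, and the offset brought ACSL3 to -0.26 and -0.58 and ACSL4 to -0.47 and -0.62, all still called lower. ACSL1 had 38.1, 42.2 and 38.3 CPM in HCC1937 extract libraries, against 87.5, 92.6 and 96.2 CPM in controls, a 2.33-fold fall (-1.22 ± 0.14, adjusted p = 9.02e-06). Its level in MDA-MB-231 was 17.4, 23.4 and 26.1 CPM in extract libraries, against 13.6, 18 and 16.3 CPM in controls. E7, at 17.4 CPM, lay among those controls, and the rise of 0.49 ± 0.15 (adjusted p = 0.011) was 0.64 without E7. The rise was not called without E1 (0.38, adjusted p = 0.0538), with library totals (0.22) or with only the groups compared. ACSL5, found on mitochondria and the endoplasmic reticulum, had 114, 118 and 117 CPM in HCC1937 extract libraries, against 63.3, 62.3 and 68.2 CPM in controls (0.85 ± 0.07, adjusted p = 7.48e-07). For MDA-MB-231 the libraries gave 98.4, 107 and 111 CPM in extract libraries, against 145, 149 and 149.6 CPM in controls (-0.49 ± 0.07, adjusted p = 9.59e-05).

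In glycerolipid assembly, 5 of 7 members were called higher in each line, among the 11 members called higher in that line. Over all genes tested, 32.7% were called higher in HCC1937 and 33% in MDA-MB-231. With the offset, AGPAT2 and DGAT2 alone of these members kept the call in HCC1937, and AGPAT2 and AGPAT3 alone in MDA-MB-231. GPAM, the mitochondrial acyltransferase that opens the route, had 4.57, 5.34 and 4.79 CPM in HCC1937 extract libraries, against 10.6, 10.2 and 10.3 CPM in controls (-1.08 ± 0.17, adjusted p = 0.000151). MDA-MB-231 libraries gave 7.61 CPM in E7 and 13.1 and 12.7 CPM in E8 and E9, against 12.5, 12.7 and 13 CPM in controls (-0.18 ± 0.17, adjusted p = 0.374, and 0.03 without E7). Its transcript is 6371 nt long with 41% GC, and with the offset GPAM was called higher in both lines, at 0.36 and 0.92. AGPAT2, which adds the second acyl chain, had 296, 294 and 293 CPM in HCC1937 extract libraries, against 119, 113 and 117 CPM in controls. In MDA-MB-231 it had 168 CPM in E7 and 110.4 and 105 CPM in E8 and E9, against 51, 48.5 and 45.4 CPM in controls. It rose 2.53-fold (1.34 ± 0.15, adjusted p = 6.73e-06) and 2.65-fold (1.40 ± 0.15, adjusted p = 6.67e-06, and 1.17 without E7). The AGPAT2 transcript is 1512 nt long with 65.9% GC, within the short, GC-rich class that rose over all genes, and both calls were kept with the offset. The related AGPAT1 and AGPAT3 rose less, by 0.37 and 0.29 in HCC1937, where library totals turned both below 0 and uncalled (-0.08 and -0.17), and by 0.50 and 0.78 in MDA-MB-231. With the offset AGPAT1 was called lower in HCC1937 (-0.30, adjusted p = 0.00054) and not called in MDA-MB-231 (-0.02), and AGPAT3 was not called in HCC1937 (0.02) and still higher in MDA-MB-231 (0.64).

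LPIN1, which removes phosphate from phosphatidic acid to make diacylglycerol, had 19.8, 17.9 and 18.8 CPM in HCC1937 extract libraries, against 70, 78.4 and 72.7 CPM in controls. The MDA-MB-231 values were 24.8 CPM in E7 and 41.6 and 42.6 CPM in E8 and E9, against 185, 190.2 and 201 CPM in controls. The falls were 3.91-fold (-1.97 ± 0.17, adjusted p = 6.97e-07) and 5.26-fold (-2.39 ± 0.17, adjusted p = 1.99e-07, and -2.18 without E7), and the offset left -1.61 and -2.27. DGAT1 and DGAT2 catalyse the last step of triglyceride synthesis. DGAT1 had 187, 184 and 190.2 CPM in HCC1937 extract libraries, against 142, 131 and 136 CPM in controls (0.46 ± 0.12, adjusted p = 0.00567). Its level in MDA-MB-231 was 57.6, 42.5 and 38.5 CPM in extract libraries, E7 highest, against 37.1, 35.3 and 34.5 CPM in controls (0.37 ± 0.13, adjusted p = 0.0216). DGAT1 was not called with library totals (0.00 and 0.05) or the offset (-0.04 and 0.03). In MDA-MB-231 DGAT1 also fell short without E2 or E3 (adjusted p = 0.0572 and 0.0665) and with only the groups compared, and was 0.19 without E7. DGAT2 had 30.8, 29.7 and 30.2 CPM in HCC1937 extract libraries, against 13.4, 11.9 and 14.1 CPM in controls, a 2.30-fold rise (1.20 ± 0.12, adjusted p = 2.71e-06). For MDA-MB-231 the libraries gave 9.03, 11.2 and 8.19 CPM in extract libraries, against 7.1, 7.82 and 6.64 CPM in controls (0.41 ± 0.13, adjusted p = 0.0162). There the call was lost without E3 or E8 (adjusted p = 0.0646 and 0.0814), with library totals (0.12), with the offset (-0.14) and with only the groups compared.

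SREBF1, whose product SREBP-1 activates many of the genes above, had 249.6, 252 and 248 CPM in HCC1937 extract libraries, against 458, 449 and 424 CPM in controls. MDA-MB-231 libraries gave 149.8 CPM in E7 and 237 and 238 CPM in E8 and E9, against 245, 248 and 242 CPM in controls. It fell in HCC1937 (-0.83 ± 0.14, adjusted p = 0.000269) and did not pass in MDA-MB-231 (-0.23 ± 0.14, adjusted p = 0.173, and -0.04 without E7). With the offset both lines were called lower, at -1.28 and -0.60. SREBP-1 is known to act at sterol regulatory elements, usually beside factors such as NF-Y, which binds the CCAAT box, and Sp1, which binds GC boxes. Promoter windows of 300 bases, 250 before and 50 after each start, were used from RefSeq (GRCh38.p14) for 32 of the 37 members, with 60 windows in all. The sterol element TCACNCCAC, on either strand, was found in 1.13% of all 35116 windows and in 2 of the 60 member windows, of ACSL1 and ACSL6. CCAAT, on either strand, was in 34.6% of all windows and in 24 of the 60 (40%), the E-box CACGTG in 7.26% and in 2, and the GC box GGGCGG, on either strand, in 45.0% and in 43 (71.7%). A match is a description of letters, and no match says only that these letters are not in the window. The windows below are those of SCD, which fell in both lines, FADS2, which rose in HCC1937 and fell in MDA-MB-231, and ACSL1, which did the opposite. Each reads 5′ to 3′ on the gene's strand, and capitals mark CCAAT or its reverse complement ATTGG and the sterol element in either orientation. The SCD window is chr10:100346983-100347282 (plus strand), with CCAAT at 2 places. The FADS2 window is chr11:61816154-61816453 (plus strand), the window of 1 of its 2 listed starts, with 1 CCAAT in the 50 bases after the start. The ACSL1 window is chr4:184805504-184805803 (minus strand), the window of 1 of the 5 starts listed for that gene, with 1 sterol element and 1 CCAAT box, both on the opposite strand.
SCD: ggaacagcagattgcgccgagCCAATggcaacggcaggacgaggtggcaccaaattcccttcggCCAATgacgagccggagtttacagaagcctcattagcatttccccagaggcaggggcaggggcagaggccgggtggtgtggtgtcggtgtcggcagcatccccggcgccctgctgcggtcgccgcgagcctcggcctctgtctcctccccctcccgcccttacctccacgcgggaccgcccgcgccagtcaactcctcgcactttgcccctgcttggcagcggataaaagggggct
FADS2: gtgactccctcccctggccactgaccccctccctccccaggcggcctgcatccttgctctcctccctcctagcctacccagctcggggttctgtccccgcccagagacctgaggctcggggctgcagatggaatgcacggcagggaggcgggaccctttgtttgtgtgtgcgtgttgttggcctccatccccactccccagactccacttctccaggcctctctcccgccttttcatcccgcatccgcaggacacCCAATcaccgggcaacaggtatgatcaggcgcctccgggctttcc
ACSL1: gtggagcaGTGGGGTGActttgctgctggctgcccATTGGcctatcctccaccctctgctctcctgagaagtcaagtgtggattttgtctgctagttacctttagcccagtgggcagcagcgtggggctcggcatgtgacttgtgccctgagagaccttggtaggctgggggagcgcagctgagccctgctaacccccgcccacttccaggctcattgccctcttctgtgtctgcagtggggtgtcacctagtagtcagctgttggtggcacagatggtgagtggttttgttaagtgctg

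The extract effect itself differed between the lines for 10 of the 35 members. The difference, HCC1937 minus MDA-MB-231 in log2 fold change, was called above 0 for 4 and below 0 for 6, against 11.5% and 20.6% of all genes, and without E7 for 9 and 12, against 24.7% and 33.3% of all genes. With the offset it was called for 10 and 7, against 18.7% and 20.6%. The 4 above 0 were FADS2 (2.28 ± 0.26, adjusted p = 7.23e-05), ACSS2 (2.06 ± 0.12, adjusted p = 4.51e-07), ACSL5 (1.34 ± 0.10, adjusted p = 4.88e-06) and DGAT2 (0.80 ± 0.18, adjusted p = 0.00528). The 6 below 0 were ACSL1 (-1.71 ± 0.20, adjusted p = 8.93e-05), FADS3 (-1.28 ± 0.15, adjusted p = 7.46e-05), GPAM (-0.90 ± 0.24, adjusted p = 0.0146), HACD2 (-0.62 ± 0.17, adjusted p = 0.0171), SREBF1 (-0.60 ± 0.20, adjusted p = 0.043) and AGPAT3 (-0.50 ± 0.12, adjusted p = 0.00824). FADS2, ACSS2, ACSL5, ACSL1, FADS3, GPAM, DGAT2 and AGPAT3 kept these calls over all 19 alternatives. HACD2 lost it with the offset (-0.25, adjusted p = 0.199). SREBF1 kept it in only 4 of 19, being lost when any library other than E7 was left out (adjusted p = 0.0662 to 0.101). The SREBF1 call was also lost with DESeq2, with its size factors, with no filter and with library totals. For SCD, ELOVL6, ACSL3, ACSL4 and LPIN1, which fell in both lines, the difference did not pass, at -0.19 ± 0.24 for SCD (adjusted p = 0.6) and 0.00 ± 0.09 for ACSL3, which does not show that the lines respond alike. Without E7 it was called for SCD (-0.39, adjusted p = 6.35e-09), ACSL4 (-0.25, adjusted p = 0.0041) and LPIN1 (0.24, adjusted p = 0.0135). With the offset it was called for ACSL3 (0.32, adjusted p = 0.00219), ELOVL6 (0.67, adjusted p = 0.000228) and LPIN1 (0.65, adjusted p = 0.000379). The SCD to FASN ratio of CPM within a library, not adjusted for length, was 0.749 to 0.793 in HCC1937 extract libraries and 1.56 to 1.77 in HCC1937 controls, and 0.874 in E7, 0.596 and 0.625 in E8 and E9 and 0.924 to 0.951 in MDA-MB-231 controls.

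**Figure D4:**
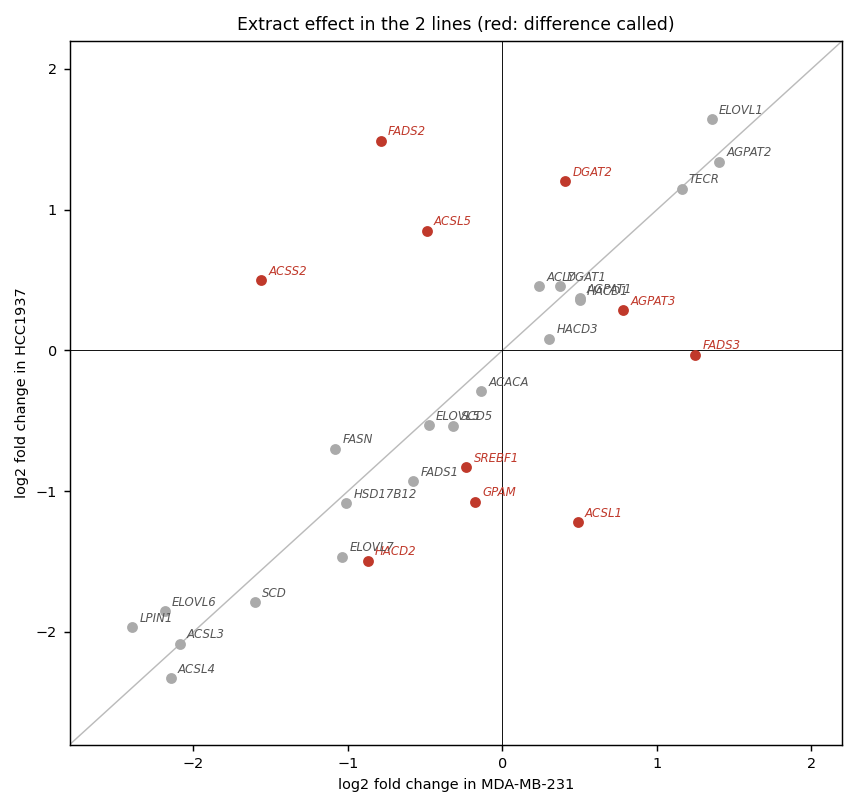
Log2 fold change with extract over control in HCC1937 (vertical) against MDA-MB-231 (horizontal), 1 point per lipid synthesis gene, with the line of equal effect. Red marks the genes whose difference between the lines was called. FADS2, ACSL5 and ACSS2 lie in the upper left quadrant and ACSL1 in the lower right, while SCD, ELOVL6, ACSL3, ACSL4 and LPIN1 lie in the lower left. Members with 1 CPM or less on average in a line are not drawn.

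Without extract the lines already differed. In HCC1937 control libraries, 11 members were higher than in MDA-MB-231 control libraries, 18 were lower and 6 did not pass, against 38.7% and 36.7% of all genes, and with the offset 12 were higher and 17 lower, against 38.5% and 42.9%. FADS2 averaged 28.1 ± 1.32 CPM in HCC1937 controls and 510.4 ± 6.52 CPM in MDA-MB-231 controls, 18.2-fold lower in HCC1937 (-4.18 ± 0.21, adjusted p = 5.42e-09). ACSS3 averaged 0.104 CPM against 66.4 CPM, and ACACB 0.339 CPM against 15 CPM, so both were nearly unread in HCC1937. FADS1 and LPIN1 were also lower in HCC1937, by 1.03 and 1.38 on the log2 scale. ACSL1 ran the other way, at 92.1 ± 4.38 CPM in HCC1937 controls and 16 ± 2.23 CPM in MDA-MB-231 controls (2.53 ± 0.15, adjusted p = 2.32e-08), as did DGAT1 (1.94 ± 0.13), TECR (1.63 ± 0.25), ACACA (1.29 ± 0.22) and AGPAT2 (1.27 ± 0.15). SREBF1 was 0.85 ± 0.14 higher in HCC1937 controls (adjusted p = 0.000198), but 0.03 and not called with the offset. FASN and SCD did not pass between the controls (-0.43 ± 0.26 and 0.38 ± 0.17, adjusted p = 0.144 and 0.0563), though without E7 both were called at -0.47 and 0.35. With extract, ACSL1 stood at 39.5 ± 2.34 CPM in HCC1937 and 22.3 ± 4.48 CPM in MDA-MB-231, and FADS2 at 78.9 ± 2.23 and 296 ± 92.6 CPM, so the extract groups lay closer to each other than the control groups for both genes (SD, n = 3 each throughout).

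**Figure D5:**
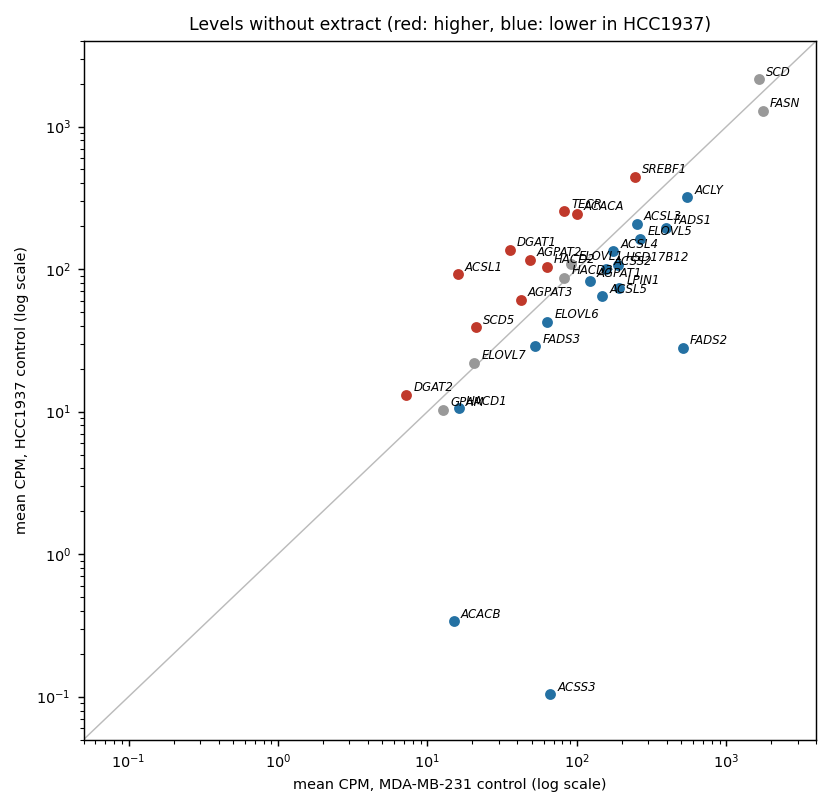
Mean CPM of each lipid synthesis gene in HCC1937 control libraries (vertical) against MDA-MB-231 control libraries (horizontal), both on log scales, with the line of equal level. Red points are higher and blue points lower in HCC1937, and grey points were not called. FADS2, ACACB and ACSS3 lie far below the line and ACSL1 lies above it. FASN and SCD have the highest mean CPM in both lines, a scale not adjusted for length.

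To rank the members by level, values were taken per kilobase of the longest coding transcript. On the scale of mean CPM per kb, SCD led the members in both control groups, at 399 in HCC1937 and 306 in MDA-MB-231. With extract, and with E7 included, TECR led in both, at 475 in HCC1937 and 155 in MDA-MB-231, with SCD at 116 and 101. The offset left TECR uncalled in both lines, and its mean in MDA-MB-231 extract libraries was 184 CPM with E7 and 131 CPM without. Without E7, TECR did not lead in MDA-MB-231, and per kb it lay below ACLY, ELOVL1, FASN and SCD. In HCC1937 extract libraries ELOVL1 (210.4) and AGPAT2 (195) followed TECR, and in MDA-MB-231 extract libraries ACLY (149) and ELOVL1 (144) did, so that SCD stood below other members as well. FASN stood at 93.1 per kb with extract and 151 without in HCC1937, and at 96.3 with extract and 204 without in MDA-MB-231. ELOVL6 was among the low members, at 1.83 with extract and 6.62 without in HCC1937, and at 2.13 with extract and 9.77 without in MDA-MB-231.

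Neighbouring lipid pathways, taken as lists chosen with earlier results of these data known, held genes called in both directions. Their counts are to be read against the 32.7% risen and 39.1% fallen of all genes in HCC1937 and the 33% and 32.8% in MDA-MB-231. For counts with the offset, the shares of all genes were 33.1% and 34.2% in HCC1937 and 33.7% and 31.9% in MDA-MB-231. Without E7, 5471 genes rose and 6215 fell of 14360 in HCC1937, and 37.3% rose and 37.2% fell in MDA-MB-231. Of 11 genes that control SREBP, 3 rose and 6 fell in HCC1937, and 3 rose and 4 fell in MDA-MB-231, or 5 and 5 there with the offset. INSIG1, which holds SREBP in the endoplasmic reticulum and is itself an SREBP target, averaged 38 CPM with extract and 117 CPM without in HCC1937 (-1.62), and 86 CPM with extract and 412 CPM without in MDA-MB-231 (-2.26), whereas NR1H2, which encodes the liver X receptor beta, rose by 1.67 and 1.58. Of 23 cholesterol synthesis and uptake genes, 4 rose and 12 fell in HCC1937, with IDI1 at -1.53 and MSMO1 at -1.36, and 5 rose and 11 fell in MDA-MB-231, with HMGCS1 at -2.70 and MSMO1 at -1.95. Without E7 the counts were 8 and 13 in HCC1937 and 7 and 14 in MDA-MB-231, and with the offset 2 and 12 and 2 and 15. With the offset, MSMO1 was -0.05 in HCC1937. Of 13 genes supplying NADPH and carbon, 7 rose and 5 fell in HCC1937 and 6 rose and 4 fell in MDA-MB-231. IDH1, a cytosolic source of NADPH, averaged 102 CPM with extract and 415 CPM without in HCC1937 (-2.02), and 105 CPM with extract and 117 CPM without in MDA-MB-231, a difference between the lines of -1.88 ± 0.11 (adjusted p = 6.55e-07). Of 23 fatty acid oxidation genes, 9 rose and 7 fell in HCC1937 and 10 rose and 6 fell in MDA-MB-231, or 9 and 10 there with the offset. ACADM, which starts oxidation of medium chains, fell by 2.57 and 1.25 on the log2 scale. Of 15 genes of fatty acid uptake and transport, 11 were tested, of which 2 rose and 6 fell in HCC1937 and 4 rose and 4 fell in MDA-MB-231. SLC27A4, a fatty acid transport protein with acyl-CoA synthetase activity, rose by 2.08 and 1.76 (1.47 and 1.27 with the offset) and ACBD3 fell by 1.94 and 1.11. Of 18 lipid droplet and lipolysis genes, 13 were tested, of which 6 rose and 2 fell in HCC1937 and 7 rose and 3 fell in MDA-MB-231. The droplet coat genes PLIN3 and PLIN2 rose by 1.68 and 1.16 in HCC1937 and by 0.79 and 0.63 in MDA-MB-231, and with the offset 4 of these 13 rose and 7 fell in MDA-MB-231. A fibroblast list of 4 genes, with COL1A1 the highest in every group, LUM read in HCC1937 and DCN at 0, also moved with the groups, summing to 6.59 to 8.01 CPM in HCC1937 extract and 28.9 to 31.4 CPM in HCC1937 control libraries, and to 3.91 to 6.80 CPM in MDA-MB-231 extract and 19.5 to 22.5 CPM in MDA-MB-231 control libraries. Its part in these results was not tested.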

How the data were processed

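RNA of 12 samples in 4 groups was captured with poly-T beads and made into libraries with a TruSeq Stranded Total RNA kit, per the labels' protocols. The authors deposited 1 table of expected (estimated) counts per gene; per the submitters' processing notes it involved FastQC 0.12.1, fastp 0.23.4, Salmon 1.10.3, DESeq2 and R 4.4.1 with GRCh38, and the annotation release is not given in the sources used here. Groups were taken from the sample titles, since the cell line entry counts up from sample to sample. The labels do not say that replicates were separate cultures, so a p-value here reflects how far libraries of a group varied, and that variation may be technical only. Of the deposited expected counts, 52.8% were not whole, and all were rounded, moving each by at most 0.5. The 1 row without a symbol held 0 counts. No pair of libraries agreed within sampling noise: chi-square per degree of freedom was 2.20 to 4.19 within groups, and 239 and 254 for pairs with E7.

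Genes kept by edgeR's filterByExpr were fitted with 4 group means in edgeR 4.0.16 (R 4.3.3), with TMM factors, the quasi-likelihood test and Benjamini-Hochberg adjustment at 0.05. The difference between lines is the interaction contrast. Lengths and GC content of the longest coding transcript came from GENCODE release 29 and covered 99.4% of tested genes. The offset removed a smooth fit of log counts on length and GC per library (mgcv 1.9.3). Alternatives were DESeq2 1.42.0, its size factors, limma voom (limma 3.58.1), no filter, only the groups compared, the offset, library totals and each library left out. The procedure was tested on simulated data. No promoter window was used for FASN, ACSS3, HSD17B12, DGAT1 or DGAT2, so the motif counts say nothing of these genes. Any window on chromosome 8, where DGAT1 lies, was left out of the member windows but not of the windows of all genes. Some windows of the same gene overlap, as for ACLY, TECR and ACSL6, so the windows counted are not all independent promoters. Values in every library were given for 16 members at named steps and, per comparison, for the 3 called members with the largest changes in each direction at a mean of at least 5 CPM; other values were added by role after they were seen. The members and lists were chosen with earlier results of these data known. Floors cover counting error only, while the standard errors and SDs include variation between libraries.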

Additional observations from a re-analysis of the deposited data

Results flagged for a closer look

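The extract effect differed between the lines, by the interaction test in edgeR's quasi-likelihood fit, for 10 lipid synthesis genes. As HCC1937 minus MDA-MB-231 in log2 fold change, the difference was 2.28 for FADS2, 2.06 for ACSS2, 1.34 for ACSL5, 0.80 for DGAT2, -0.50 for AGPAT3, -0.60 for SREBF1, -0.62 for HACD2, -0.90 for GPAM, -1.28 for FADS3 and -1.71 for ACSL1. SREBF1 kept its call in only 4 alternatives and lost it in 15, and HACD2 lost its call with the offset. The lines differed in medium and in extract dose as well, and these cannot be told apart. Groups of 3 libraries are too small for a test of single outlying libraries.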

How the results depend on the processing

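No paired analysis was possible because the library numbers are not shared between groups. Over 2689 member values recomputed under the alternatives, 2437 kept their direction and side of the threshold, 60 lost and 89 gained a call, 39 reversed and 64 uncalled values changed sign. Scaling by library totals, and the length and GC offset with E7 left out, were chosen after seeing the data. The HCC1937 median was -0.44 with DESeq2 and with its size factors, -0.036 with the offset, -0.98 with library totals, -0.46 with voom and -0.39 with only the groups compared, and -0.53 to -0.32 with 1 library left out. The MDA-MB-231 median was -0.044 with the offset, -0.061 with the offset and E7 left out, -0.61 with library totals and -0.50 to -0.28 with 1 library left out. Library totals gave 6 higher calls in HCC1937 and 5 in MDA-MB-231, of 35 members, against 2877 and 3233 of 14133 genes. For the difference between lines, higher calls were 10 with the offset, 15 with the offset and E7 left out, 9 with voom and 4 to 9 with 1 library left out. Over all genes they were 2621 of 14053, 3829 of 14273, 3591 of 14133, and 1340 to 3554 of 14247 to 14366 in turn. Lower calls were 12 with voom and 5 to 12 with 1 library left out, against 5026 and 2344 to 4780 over all genes. The median of the difference was 0.12 with the offset, 0.087 with E7 also left out and -0.22 with library totals, and the control comparison's median was -0.20 with the offset. Values that reversed with the offset in HCC1937 were ACACA 0.21, ELOVL2 0.93, ELOVL5 0.35, ELOVL7 0.34, ACSS2 -0.087, GPAM 0.36, AGPAT1 -0.30 and DGAT1 -0.036. With library totals HACD3 was -0.37, AGPAT1 -0.084 and AGPAT3 -0.17 there. In MDA-MB-231 the offset gave ACACA 0.18, ELOVL7 0.38, ACSS3 0.53, GPAM 0.92, AGPAT1 -0.020 and DGAT2 -0.14. With E7 also left out it gave ACACA 0.22, ELOVL5 0.11, ELOVL7 0.54, ACSS3 0.51, HACD2 0.13, TECR -0.022, GPAM 1.04, AGPAT1 -0.061, DGAT1 -0.27 and DGAT2 -0.089. Leaving out 1 library moved ACACA in MDA-MB-231 over -0.29 to 0.15, and the difference over -0.21 to 0.50 for TECR and -0.19 to 0.20 for AGPAT2. The difference also reversed with the offset for ELOVL5 (0.38) and HSD17B12 (0.40), with E7 also left out for ELOVL5 (0.25), HSD17B12 (0.39), HACD1 (0.48) and HACD3 (0.18), and with voom for TECR (0.45) and AGPAT2 (0.18). Between the controls ACSL3 was 0.0092 with the offset. The cause of these changes was not tested. Members under about 1 CPM rest on few reads, and no change of theirs was detectable at this depth in most comparisons.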
